A study of Arabidopsis thaliana with 15 samples.

Results

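DNA methylation of the dry seed of Arabidopsis thaliana was compared with that of the seedling, window by window, with the CG, CHG and CHH contexts of the same 300-bp window read together (H is A, C or T). The members were the 3 libraries of 0 h and the 3 libraries of 48 h SL, 6 of the 15 MethylC-seq libraries of a germination time course, chosen by their time point labels. All libraries came from wild type Col-0 (Col0 in the labels), and the seeds were taken from a single batch of plants. At 0 h the tissue was seed that had been dried in the dark for 14 days. At 48 h SL it was seedling, collected on MS plates with sucrose after stratification (48 h, dark, 4 °C) and a further 48 h in continuous light at 22 °C. Tissue and time therefore changed together between the groups and cannot be told apart, and in bulk DNA a change in the share of a cell type cannot be told apart from a change within cells. The 9 libraries of the intermediate time points (48 h S, 6 h SL and 24 h SL) were used to estimate the spread, to class windows without using the ends of the contrast, and as a check on the course.

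In plants each context has its own maintenance route. MET1 copies CG methylation after DNA replication, CMT3 maintains CHG methylation together with methylation of histone H3 lysine 9, and CHH methylation is renewed either by DRM2 under the guidance of small RNAs (RNA-directed DNA methylation) or by CMT2, which acts mainly in long transposable elements near the centromeres and favours CAA and CTA. CMT3 favours CAG and CTG over CCG. Methylation of transposable elements usually occupies all contexts of a region, whereas many expressed genes carry CG methylation alone in their bodies, so a loss that spares a context can be seen only where contexts are compared in the same window.

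MethylC-seq reads unmethylated cytosines as thymine after bisulfite treatment. The level of a window was the percentage of methylated calls among all calls of a context. The 3 libraries of 0 h held 272191204, 196088777 and 218069478 calls and those of 48 h SL 339251465, 234908446 and 221011626, or 4.58 to 7.92 calls per cytosine. Replicates correlated across CHH windows with r = 0.976 to 0.980 at 0 h and 0.951 to 0.958 at 48 h SL. Replicate 1 of 48 h SL placed 18.5% of its calls in gene-poor bins against 16.0% and 15.5% in the other two and 16.3% to 17.1% at 0 h, and for this reason genome-wide means count windows or bins equally. In 205117 windows with almost no CG and CHG methylation the CHH level, which contains incomplete conversion, was 0.30% ± 0.0495 (SD, n = 3) at 0 h and 0.60% ± 0.219 (SD, n = 3) at 48 h SL, so this background rose while the methylated windows lost methylation.

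The sequences of 3 windows show what a joint loss, a loss confined to non-CG cytosines without a CHG call, and a loss with a CG call looked like. They are TAIR10.1 reference sequence (RefSeq) written 5′ to 3′ on the plus strand. In the first pair, capitals mark CHG or CHH cytosines (C, or G opposite a cytosine of the minus strand) that fell by at least 20 percentage points and had at least 10 calls in both groups, and in the last they mark CG cytosines by the same rule. The first lies at chr1:25358101-25358400, 1212 bp downstream of AT1G67650, the second at chr1:18165301-18165600, 528 bp downstream of AT1G49100, both outside annotated genes and upstream regions, and the last at chr2:2938201-2938500 in an exon of the pseudogene AT2G07080.
window near AT1G67650: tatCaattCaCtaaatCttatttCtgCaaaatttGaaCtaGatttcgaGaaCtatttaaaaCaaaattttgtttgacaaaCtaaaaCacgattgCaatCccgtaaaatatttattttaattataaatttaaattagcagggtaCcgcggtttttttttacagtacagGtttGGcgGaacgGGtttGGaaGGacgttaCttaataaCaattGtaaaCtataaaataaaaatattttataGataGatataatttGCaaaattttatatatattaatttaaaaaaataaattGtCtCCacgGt
window near AT1G49100: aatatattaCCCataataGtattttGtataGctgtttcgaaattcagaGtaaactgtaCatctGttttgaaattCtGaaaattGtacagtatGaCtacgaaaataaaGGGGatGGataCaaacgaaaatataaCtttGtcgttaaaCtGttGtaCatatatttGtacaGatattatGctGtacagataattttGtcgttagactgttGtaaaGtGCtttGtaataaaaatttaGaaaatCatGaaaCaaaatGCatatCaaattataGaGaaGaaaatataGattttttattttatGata
window near AT2G07080: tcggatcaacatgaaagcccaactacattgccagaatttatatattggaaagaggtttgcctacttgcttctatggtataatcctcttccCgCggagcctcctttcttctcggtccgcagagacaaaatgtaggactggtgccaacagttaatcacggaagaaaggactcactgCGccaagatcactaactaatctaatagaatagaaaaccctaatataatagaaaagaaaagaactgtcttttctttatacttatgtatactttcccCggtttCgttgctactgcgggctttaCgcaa

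In the window near AT1G67650, 35 of the 39 CHH cytosines with enough calls are in capitals, and their mean went from 78.0% to 36.2% over all 39. Its CHG cytosines differed among themselves, since the 6 CCG sites went from 76.2% to 42.5% and 4 of them are in capitals, while the 8 CAG and CTG sites went from 85.7% to 74.5% with only 1 in capitals. None of its 16 CG cytosines fell by 20 points. The window near AT1G49100 lost as much in CHH (77.8% to 36.3% over 44 cytosines, 42 of them in capitals) but holds no CCG site with enough calls, and its 22 CAG and CTG sites went from 86.8% to 73.7%. These windows were chosen by their calls, and the values describe them.

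The question of joint against single-context loss was asked first of each context alone. At 48 h SL, 7519 of 384795 CHH windows (1.95%) were lower than at 0 h by at least 20 points at an adjusted p below 0.05, and 0 were higher (0%). The test was a quasi-likelihood F test of a quasi-binomial model with Benjamini-Hochberg adjustment per context. Limma on arcsine levels also called 0 windows as higher, 92508 windows passed an unadjusted p of 0.05 in either direction, and without the 20-point minimum 4123 CHH windows (1.07%) were higher. The lower CHH windows had a median difference of -24.9 points, and the libraries of the groups did not overlap in 99.5% of them, against 14.9% of all tested CHH windows. CHG gave 283 lower windows of 298621 (0.0948%) and 2 higher ones (0.000670%). CG gave 10 lower windows of 262730 (0.00381%) and 17 higher ones (0.00647%).

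The contexts were not equally well measured, because the median window held 182 CHH calls but only 37 CHG and 35 CG calls in its shallowest library. The counts of CG windows were not stable against leaving out a library: the lower windows numbered 2 without any 1 of the 0 h libraries, 30 without replicate 1 of 48 h SL, and 6 without replicate 2 or 3 of 48 h SL, and the higher ones 0 to 2 without a 0 h library, 7 without replicate 1 of 48 h SL and 11 without replicate 2 or 3. An alternative weighting, chosen after seeing the data, counted each cytosine equally over those with a call in all 6 libraries. With it 6465 of the CHH windows (86.0%), 224 of the lower CHG windows (79.2%), 7 of the lower CG windows and 9 of the higher CG windows still differed by 20 points, and 0 of the 2 higher CHG windows did.

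In 214112 windows all 3 contexts could be tested, among them 37.3% of the CHH windows called as lower. Here 2804 windows were called in CHH (1.31%), 274 in CHG (0.128%) and 6 in CG (0.00280%), and 12 windows were higher in CG (0.00560%). A loss was called in at least 1 context in 2900 windows. In 2621 of them (90.4%) it was called in CHH only, in 183 in CHH and CHG, in 90 in CHG only, in 5 in CG only and in 1 in CHG and CG. No window was called in CHH and CG or in all 3 contexts, whereas 6 windows were called in all 3 without the 20-point minimum. The 183 joint windows were 6.53% of the CHH windows and 66.8% of the CHG windows, lists of unequal size.

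An uncalled CHG window is no proof of a smaller change. In 1801 of the 2804 CHH windows (64.2%, against 98.4% of all 214112) the 95% interval of the CHG change excluded a fall of 20 points. In 820 the CHG window was not called although its interval held such a fall. For CG the interval excluded a 20-point fall in 2793 windows (99.6%, against 99.1% of all 214112). The context differences were therefore tested themselves, with limma on the difference of levels within each library. CHH fell by at least 20 points more than CHG in 721 windows (0.337%) and less in 3, and 542 of the 721 were among the 2804 CHH windows (19.3% of these). CHH fell more than CG in 2869 windows (1.34%), including 1954 of the 2804 (69.7%), and CHG fell more than CG in 135 (0.0631%), including 73 of the 274 CHG windows. The CHH and CHG difference was sensitive to the number of libraries, with 388 to 466 windows when any 1 of the 6 libraries was left out.

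In the 2804 CHH windows the mean CHH level was 54.9%, 54.5% and 55.6% in the 0 h libraries and 30.5%, 28.4% and 28.2% in those of 48 h SL. The choice of the windows on these libraries fixes that the groups are apart, here 55.0% ± 0.550 (SD, n = 3) against 29.0% ± 1.28 (SD, n = 3), and 52.8% of the level was left. CHG stood at 65.1%, 64.7% and 65.5% against 57.1%, 54.7% and 54.6%. This smaller fall left 85.2% of the level, was shared by 91.3% of the windows with a median of -8.59 points, and passed an adjusted p of 0.05 in 339 of them (12.1%, against 0.261% of all 214112). CG stood at 82.1%, 82.1% and 82.3% against 83.3%, 81.8% and 81.5%. Its groups overlapped, the median change was 0.00904 points, and at any size 3 windows were lower and 5 higher at an adjusted p below 0.05 (0.107% and 0.178%, against 0.165% and 0.0234% of all 214112).

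The 183 windows with joint loss started higher and lost more CHG. Their CHH level was 59.2%, 59.1% and 59.6% at 0 h and 30.8%, 28.5% and 29.5% at 48 h SL, with 49.9% left. Their CHG level was 72.6%, 72.6% and 72.9% at 0 h and 48.7%, 46.5% and 46.6% at 48 h SL, with 65.0% left. CG was 84.0% ± 0.10 (SD, n = 3) at 0 h and 82.8% ± 1.21 (SD, n = 3) at 48 h SL, with overlapping libraries. These levels carry no test, because the windows were chosen on the same libraries.

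CHG loss without a CHH call was rarely CHG loss without CHH loss. In the 91 windows of this kind CHG went from 61.1% ± 0.830 (SD, n = 3) to 36.6% ± 1.44 (SD, n = 3) and CHH from 29.5% ± 1.09 (SD, n = 3) to 15.6% ± 1.11 (SD, n = 3). The CHH level lay lower at 48 h SL in all 91 and passed an adjusted p of 0.05 in 81 of them (89.0%, against 8.62% of all windows). Most of all windows had under 5% CHH at 48 h S and 6 h SL, so these shares are not matched for level. Of the CHH level 52.7% was left, close to the share left in the 2804. The 91 windows began with a lower CHH level, from which a fall of 20 points is a larger part. In 2 of the 91 windows the CHG fall exceeded the CHH fall by the context test.

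**Figure D1:**
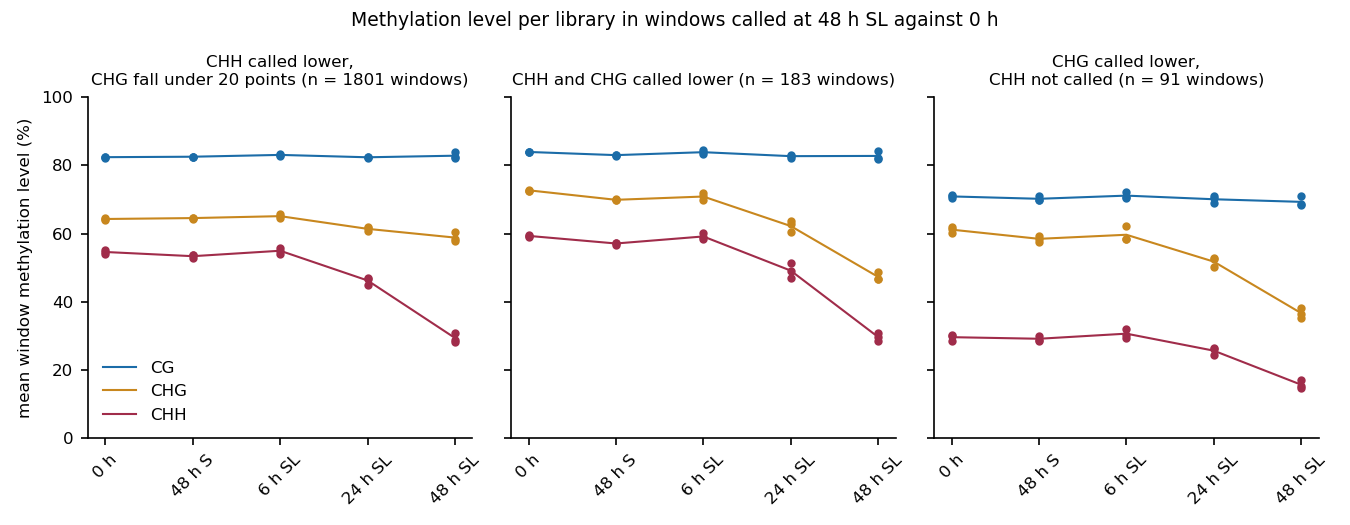
Mean window methylation level (%) of CG, CHG and CHH per library (points, 3 per time point, lines through their means) at the 5 time points, in 3 classes of windows called at 48 h SL against 0 h. In the 1801 windows whose CHG interval excludes a 20-point fall, CHH dropped from 54.6% to 29.3% while CHG went from 64.3% to 58.8%; in the 183 joint windows CHG went from 72.7% to 47.3%, and in the 91 CHG windows without a CHH call CHH went from 29.5% to 15.6%; the CG lines stayed within 2 points.

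The 24 h SL libraries are no end of the contrast, but they entered the call minimum and the estimate of the spread. In CHH and CHG they lay between the ends. In the 2804 windows CHH averaged 46.3% ± 1.19 (SD, n = 3) and CHG 60.5% ± 0.735 (SD, n = 3) at 24 h SL, and CG, at 81.8% ± 0.247 (SD, n = 3), was not between its end values. In the 183 joint windows CHH was 49.1% ± 2.23 (SD, n = 3) and CHG 62.2% ± 1.66 (SD, n = 3). The levels of both contexts were lower than at 0 h in both classes, as the plot of levels over the time points shows. Because the windows were chosen on the 0 h libraries, 48 h S and 6 h SL are a fairer reference. In the 2804 windows CHH was 53.6% and 55.2% there and CHG 64.4% and 65.2%. In the joint windows CHH was 57.1% and 59.1% and CHG 69.9% and 70.9%. The 24 h SL means lay below all of these.

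Some windows with joint loss can be named, those with the largest CHH fall on each chromosome. Near AT1G67650, in the first sequence printed, CHH was 76.7%, 76.8% and 79.6% at 0 h and 35.5%, 40.5% and 29.4% at 48 h SL, with no overlap. CHG there was 81.8%, 84.8% and 79.2% against 63.8%, 61.7% and 52.7% (change -20.8 points, 95% interval -27.7 to -13.8, adjusted p = 0.000390 by the quasi-likelihood F test). CG was 93.1% against 88.9% with overlapping libraries and an adjusted p of 0.565 in that test.

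The window 758 bp downstream of AT5G38180 (chr5:15231001-15231300) had the largest CHH fall of the 15 windows named in this way. CHH was 92.2%, 89.9% and 88.2% at 0 h and 45.1%, 43.0% and 42.5% at 48 h SL. CHG fell less there by the context test, from 90.7%, 92.1% and 88.0% to 71.6%, 69.3% and 65.7% (CHH minus CHG -25.2 points, limma adjusted p = 0.00463). In the window 211 bp downstream of AT4G05470 (chr4:2762701-2763000) the contexts moved by similar amounts. CHG was 75.5%, 86.4% and 75.3% at 0 h and 38.1%, 37.7% and 42.5% at 48 h SL, and CHH 70.2%, 74.5% and 65.9% against 32.0%, 34.1% and 29.8% (CHH minus CHG 1.36 points, limma adjusted p = 0.944).

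Of the other 12 windows, 4 lie upstream of or beside protein-coding genes on chromosome 3 or 5 within 500 bp (AT3G28720, AT3G28690, AT5G25560 and AT5G55520), and 5 lie next to pseudogenes (AT1G32680, AT1G36220, AT2G04770, AT2G06760 and AT4G04495). The remaining windows lie near AT2G25780, AT3G47580 and LpxD1. CHG went from 92.6% to 59.2% at AT2G25780, from 77.7% to 47.0% at AT3G28690 and from 77.5% to 47.3% at LpxD1, a gene of a pathway that resembles bacterial lipid A synthesis. No CG change of the 15 windows passed the test.

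Loss in CHH without a 20-point loss in CHG was largest, among windows with 30% CHG or more at 48 h S and 6 h SL, near AT1G49100, PAP15 and the pseudogene AT5G34800. PAP15 encodes a purple acid phosphatase with phytase activity, and phytate is the phosphorus store of the seed. In its window, 797 bp upstream of the gene (chr3:2259001-2259300), CHH was 76.1%, 85.3% and 82.6% at 0 h and 38.7%, 43.1% and 32.8% at 48 h SL. CHG was 88.4%, 89.5% and 95.1% against 82.1%, 76.9% and 75.6%, and CHH fell by more (CHH minus CHG -30.4 points, limma adjusted p = 0.0105).

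The opposite order, CHG falling more than CHH, was called in the windows near AT3G51090 and MDAR1, a monodehydroascorbate reductase of the peroxisome. In the window 704 bp upstream of MDAR1 (chr3:19605301-19605600) CHG was 49.4%, 54.3% and 61.0% at 0 h and 34.4%, 16.0% and 26.7% at 48 h SL. CHH was low from the start, 8.96%, 8.44% and 8.25% against 7.60%, 3.40% and 4.63% (CHH minus CHG 25.9 points, limma adjusted p = 0.0464).

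CG windows were few. None of the 6 lower ones was called in CHH at 20 points, but CHH was lower at an adjusted p below 0.05 in 4 of them (66.7%, against 8.62% of all windows). Of all 214112 windows, 175718 had under 5% CHH at 48 h S and 6 h SL, so these shares are not matched for CHH level. The largest CG falls lay in neighbouring windows of the pseudogene AT2G07080 and in AT2G07565, both in the gene-poor part of chromosome 2. In the AT2G07080 window whose sequence is given above CG was 89.0%, 91.8% and 88.7% at 0 h and 50.6%, 63.4% and 61.5% at 48 h SL, with no overlap. Counting each cytosine equally its change was -20.9 points, less than the -33.5 points of the summed calls, and 7 of its 17 CG cytosines are in capitals. Most of these capitals mark plus-strand cytosines, and in part of the window plus-strand calls multiplied at 48 h SL. For example, the plus cytosine at 2938470 went from 71.4% to 24.5% (14 and 53 calls). Its minus-strand partner at 2938471 went from 100% to 90.9% (18 and 33 calls). The loss in this window was thus uneven between the strands. This was the window called in CHG and CG together, with CHG at 49.5% against 28.7%, and CHH there was 16.4% against 8.15% (quasi-likelihood F test adjusted p = 0.00780). CHH changed by -11.3 points in the neighbouring window and by -7.29 points in AT2G07565.

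CG rose by the largest amounts in windows of AT1G12470, AT3G28670 and ACAT2, an acetoacetyl-CoA thiolase. Upstream of ACAT2 (chr5:19556701-19557000) CG was 55.7%, 50.9% and 44.7% at 0 h and 75.9%, 66.7% and 82.8% at 48 h SL while CHH was 31.2% against 22.1%. In the libraries of 48 h S and 6 h SL together CG was already 66.8% there. It was 62.4% near AT3G28670 (44.6% at 0 h and 69.6% at 48 h SL) and 36.5% in AT1G12470. Part of each rise was thus present before the seedling, in windows chosen for a low 0 h level against 48 h SL. In AT1G12470 the summed level went from 24.7% to 51.3%. Counting equally the cytosines with a call in all 6 libraries, the difference was only 7.20 points. The size of its rise therefore depended on the weighting and on the cytosines included.

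To see how loss scaled with the amount of methylation without choosing windows on the contrast, the 214112 windows were classed by their CHH level in the 6 libraries of 48 h S and 6 h SL. In the 4329 windows with 40% or more, CHH was 51.2%, 50.7% and 51.8% at 0 h and 30.6%, 28.1% and 28.0% at 48 h SL, a change of -22.3 points with 56.4% left. CHG changed by -7.49 points in these windows, and CG by 0.239 points with overlapping libraries. Of the 4329, 59.5% were called in CHH, against 1.32% of the 17411 windows with 20 to 40%.

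The middle classes differed from the top class in CG, which was lower at 48 h SL. In windows with 10 to 20% CHH the CHH change was -4.63 points (71.4% left) and with 20 to 40% it was -9.11 points (65.7% left). CHG changed by -2.26 and -3.52 points in these classes. Here CG also went down, from 84.9%, 84.6% and 85.0% to 83.0%, 81.1% and 80.9% in the 14571 windows with 10 to 20% CHH, and by -2.34 points in those with 20 to 40%, without overlap of the libraries. In the 175718 windows below 5% the CHH level went from 0.302% to 0.545%, beside 0.30% and 0.60% in the unmethylated background.

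**Figure D2:**
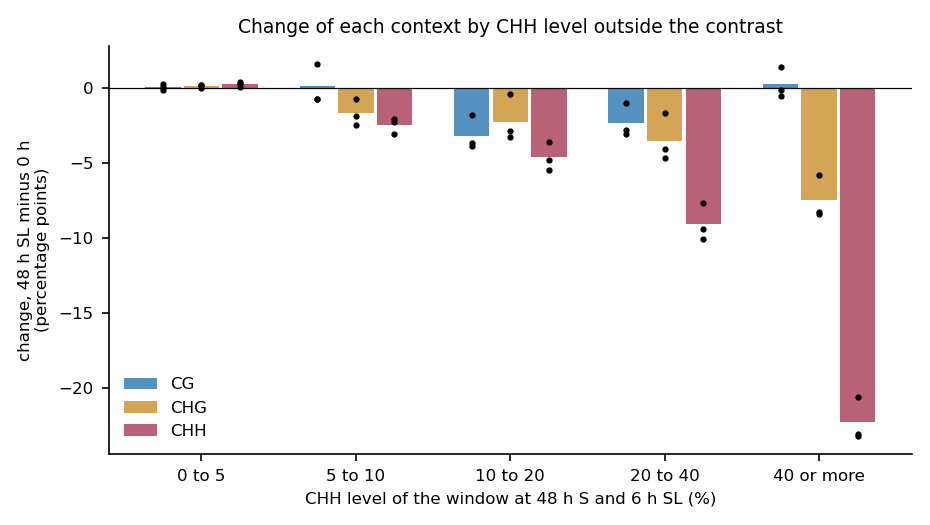
Change of the mean window level, 48 h SL minus 0 h, in percentage points, for CG, CHG and CHH (bars from 0) in windows classed by their CHH level at 48 h S and 6 h SL; points are the 3 libraries of 48 h SL, each minus the 0 h mean. The CHH bars deepen from -2.47 points at 5 to 10% to -22.3 points at 40% or more, whereas CG fell by 3.19 and 2.34 points in the middle classes and was near 0 in the lowest and highest ones.

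The CHG trinucleotides did not change alike between these classes, a comparison chosen after seeing the data. In windows with 40% CHH or more, with calls summed over each class, CCG went from 59.8% ± 0.406 (SD, n = 3) to 45.7% ± 1.91 (SD, n = 3), and CAG and CTG together from 66.2% ± 0.389 (SD, n = 3) to 61.2% ± 1.55 (SD, n = 3). CCG lay below the mean of CAG and CTG by -6.37, -6.40 and -6.36 points in the 0 h libraries and by -15.1, -15.8 and -15.5 points at 48 h SL, so the gap changed by -9.09 points. In windows with 10 to 20% CHH the gap narrowed instead, from -18.9 to -14.1 points, as CAG and CTG changed by -3.49 points and CCG by 1.36 points with overlapping libraries, and with 20 to 40% it narrowed by 1.78 points. In windows with 5 to 10% CHH, CCG stood above CAG and CTG, by 1.32 points at 0 h and 0.16 points at 48 h SL, unlike in the other classes. Each of the 4 classes from 5% upward gave separated libraries (exact 2-sided permutation test p = 0.1, the smallest for 3 against 3, adjusted p = 0.1 over the 4).

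The windows also differed in their content of CCG. It made up 22.3% of the CHG cytosines of all 214112 windows, 30.5% in the 4329 windows with 40% CHH or more, a similar 31.3% in the 2804 CHH windows, 58.5% in the 183 joint windows and 57.0% in the 91 CHG windows without a CHH call. In the joint windows CCG went from 74.0% ± 0.203 (SD, n = 3) to 43.0% ± 1.26 (SD, n = 3), a change of -31.0 points against -15.5 for CAG and -16.6 for CTG. In the 1801 CHH windows whose CHG interval excluded a 20-point fall, CCG was 26.2% of the CHG cytosines and changed by -11.4 points, CAG by -3.31 and CTG by -5.46. These shares describe windows chosen by their calls.

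Over the whole genome, with 100-kb bins counting equally, all 9 CHH trinucleotides were lower at 48 h SL, each without overlap of the libraries (exact 2-sided permutation test p = 0.1, adjusted p = 0.133 over 12 trinucleotides). Without subtraction of the background, the share left was lowest where cytosine followed the methylated cytosine: 57.7% for CCC, 61.3% for CCT and 62.3% for CCA. It was 65.6% for CTC, 66.4% for CAC, 67.6% for CTT and 68.3% for CAT, and highest for CTA (71.0%) and CAA (74.4%), the trinucleotides CMT2 favours. The background rose unequally, from 0.347% to 0.754% for CAT but from 0.256% to 0.407% for CCA, so nearby ranks are uncertain. CAA was 9.33%, 9.36% and 9.78% at 0 h and 7.77%, 7.12% and 6.30% at 48 h SL. CCC was 3.80%, 3.74% and 4.06% against 2.85%, 1.99% and 1.86%.

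The shares left thus differed between trinucleotides. The ratio of CAA and CTA to the mean of the other 7 trinucleotides was 2.22, 2.24 and 2.17 in the 0 h libraries and 2.29, 2.58 and 2.66 in those of 48 h SL (exact 2-sided permutation test p = 0.1, adjusted p = 0.200 over 2 ratios). Replicate 1 of 48 h SL stood nearest to the dry seed. In gene-poor bins 55.2% was left for CCC (8.31% to 4.58%), 72.0% for CAA (33.5% to 24.1%) and 70.6% for CTA (34.7% to 24.5%), again the lowest and the 2 highest shares, while the order in between differed. In gene-rich bins CCC (59.2%) and CAA (78.2%) were again the ends, but CTA (71.5%) lay below CTT (72.1%) and CAT (73.9%). The background rose from 0.301% to 0.583% for CTA, 0.244% to 0.575% for CTT and 0.347% to 0.754% for CAT. It was not subtracted here, so their order in gene-rich bins is uncertain. In the CHH windows called as lower, 48.2% was left for CCC and 57.4% for CAA.

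CHG trinucleotides overlapped between the groups genome-wide. CAG changed by -0.466 points (exact permutation test adjusted p = 0.545), CTG by -0.842 (adjusted p = 0.480) and CCG by -0.359 (adjusted p = 0.800). In gene-poor bins CAG changed by -3.10 points and CTG by -4.19 without overlap, whereas CCG went from 31.6% ± 0.423 (SD, n = 3) to 32.4% ± 2.50 (SD, n = 3), within the spread. The ratio of CCG to the mean of CAG and CTG was 0.784 at 0 h and 0.794 at 48 h SL (exact permutation test p = 1.00), so the opposite movements of the classes above did not show in it.

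Along the chromosomes the contexts parted again. With windows counting equally, CHH was 4.58%, 4.56% and 4.70% at 0 h and 3.53%, 3.36% and 2.96% at 48 h SL (71.1% left, exact 2-sided permutation test p = 0.1, adjusted p = 0.150 over 3 contexts). CHG changed by -0.490 points from 9.31% without overlap (the same exact p), and CG by -0.339 points from 24.9% with overlapping libraries (exact p = 0.4). The CHH level left was similar on the 5 chromosomes, 72.6%, 69.3%, 70.9%, 71.0% and 72.0% from chromosome 1 to 5. CHH and CHG libraries did not overlap on any chromosome and CG libraries overlapped on every one. The CHG separation was narrow. Replicate 1 of 0 h and of 48 h SL rounded to the same CHG level, 6.56% on chromosome 1 and 8.35% on chromosome 5.

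The 240 bins of 500 kb were divided by annotation into 41 gene-poor bins, with under 30% of their length in protein-coding genes, and 199 gene-rich bins. In gene-poor bins CG was 75.2%, 75.1% and 75.3% at 0 h and 73.3%, 71.8% and 71.7% at 48 h SL, a change of -2.93 points, and in gene-rich bins it changed by 0.0654 points with overlapping libraries. CHG changed by -2.37 points in gene-poor and -0.196 in gene-rich bins. CHH was 18.0%, 17.7% and 18.2% against 13.2%, 12.0% and 11.4% in gene-poor bins (68.0% left) and 2.49%, 2.52% and 2.60% against 2.03%, 2.01% and 1.63% in gene-rich bins (74.6% left). These shares include the unmethylated CHH background, which rose from 0.30% to 0.60% and is a larger part of the gene-rich levels. They therefore do not show which bins lost the larger share.

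The change in gene-poor bins was also set directly against that in gene-rich bins. The gap between gene-poor and gene-rich levels changed by -3.00 points (CG), -2.17 points (CHG) and -5.10 points (CHH), without overlap of the libraries (exact 2-sided permutation test p = 0.1 and adjusted p = 0.1 each). Libraries were separated downward in CG in 41 of 41 gene-poor bins, with changes of -5.27 to -1.01 points, and in 2 of 199 gene-rich bins, while 10 gene-rich bins were separated upward. For CHH 41 of 41 gene-poor and 113 of 199 gene-rich bins were separated downward and 0 upward. In replicate 1 of 48 h SL, the library with more calls in gene-poor bins, the CG level there was the highest of its group and still below every 0 h library.

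The profiles had different shapes. The deepest CG bin lay 0.500 Mb from the gene-poor centre of chromosome 4 (chr4:3000001-3500000), with CG at 92.8% ± 0.166 (SD, n = 3) against 87.5% ± 0.950 (SD, n = 3). Its CHH level went from 17.3% ± 0.284 (SD, n = 3) to 12.6% ± 1.09 (SD, n = 3), a change of -4.67 points, with 7 called CHH windows of 1478. The deepest CHH bin lay at chr1:13500001-14000000, with CHH at 20.4% ± 0.373 (SD, n = 3) against 13.6% ± 0.959 (SD, n = 3), a CG change of -2.72 points and 79 called CHH windows. Across gene-poor bins CHH changes ran from -6.85 to -4.06 points, a narrower range for its depth than that of CG.

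**Figure D3:**
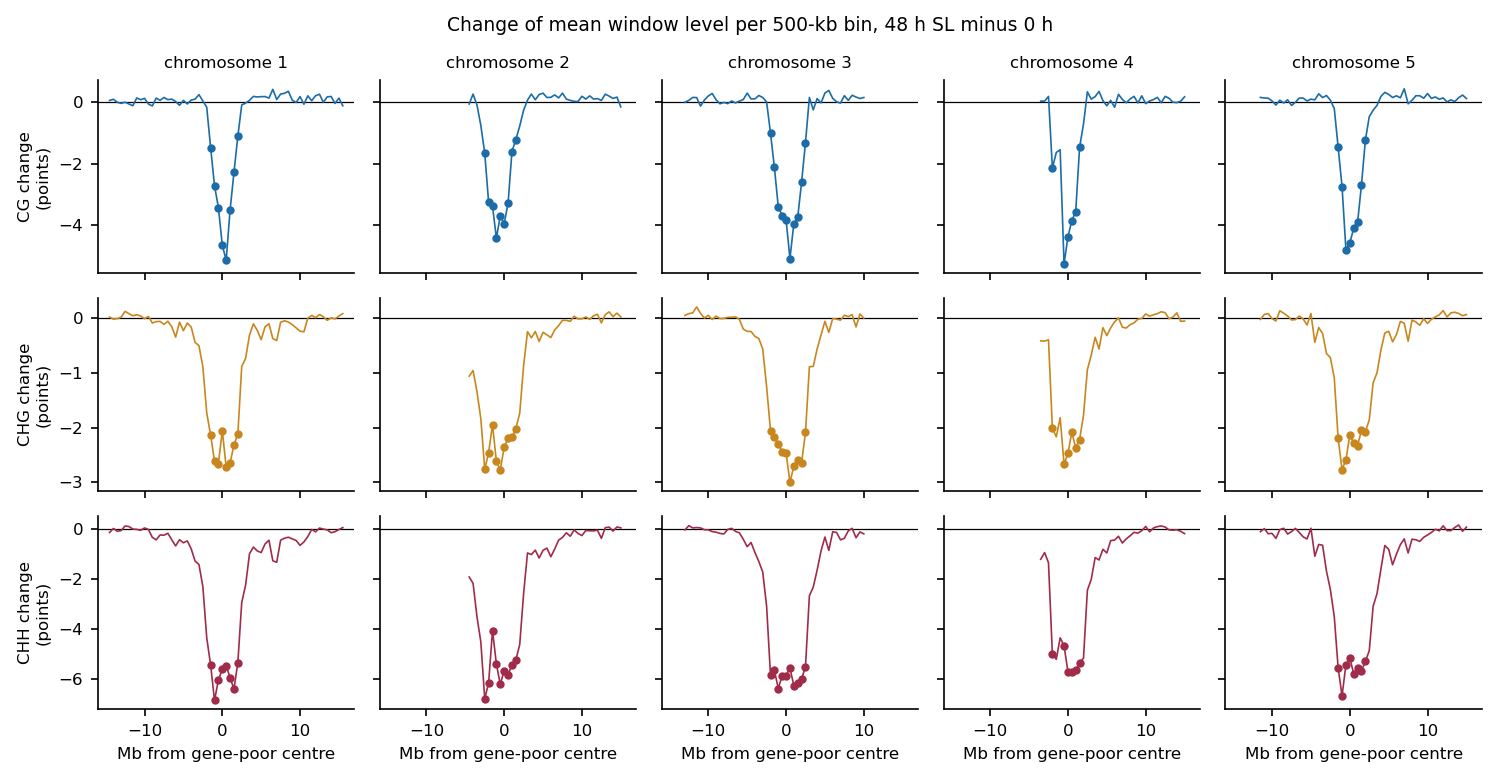
Change of the mean window level per 500-kb bin (48 h SL minus 0 h, percentage points) of CG, CHG and CHH along chromosomes 1 to 5, against the distance in Mb from the gene-poor centre; points mark the 41 gene-poor bins. All 3 contexts dip around the centres, with lowest values of -5.27 (CG), -3.00 (CHG) and -6.85 points (CHH), and CG stays near 0 on the arms.

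Called windows were spread more widely than these averages. They lay in 238 of the 240 bins, with a median of 24 and at most 126 in a bin (chr3:11000001-11500000, 7.73% of its tested windows), and the 24 bins with the most calls held 27.1% of them. Chromosomes 1 to 5 held 1792, 1476, 1483, 1224 and 1544 called CHH windows, 1.77% to 2.31% of the tested ones. The bin with the most calls lay 2.00 or 2.50 Mb before the gene-poor centre on chromosomes 2, 3 and 5 and 2.00 Mb after it on chromosome 4, and on chromosome 1 the bins 2.00 Mb before and after it tied with 80 each. Of all tested CHH windows, 3.44% were called in gene-poor and 1.67% in gene-rich bins. Among windows with 20% CHH or more at 48 h S and 6 h SL the order was reversed: 24.4% of the 22114 in gene-rich bins were called with a median change of -12.8 points, against 7.26% of the 29103 in gene-poor bins with a median of -8.19. CHH levels above that cut were not matched between the bins. Among windows tested in all contexts, 1.32% were called at 20 to 40% CHH and 59.5% at 40% or more. Whether location matters apart from level was not tested. Joint loss in CHH and CHG was called in 162 of the 1919 CHH windows in gene-rich bins that were tested in all contexts, and in 21 of the 885 in gene-poor bins.

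At the 20-point minimum the called CHH windows formed mostly short runs, and a neighbour with a smaller fall ended a run. Of the 7519, 51.2% had a called neighbour, against 3.42% of tested windows and 18.0% of windows with 20% CHH or more at 48 h S and 6 h SL. They formed 5185 runs, of which 70.8% were a single window and the longest spanned 12 windows or 3600 bp. By annotation 62.6% of the called windows lay outside genes and their 1-kb upstream regions (21.8% of tested windows). Another 26.1% lay upstream of protein-coding genes (13.4% of tested windows) and 5.47% in protein-coding genes (55.5% of tested windows). Upstream windows went from 5.46% ± 0.0949 (SD, n = 3) to 3.62% ± 0.342 (SD, n = 3) in CHH, and windows in protein-coding genes from 0.868% ± 0.0394 (SD, n = 3) to 0.854% ± 0.159 (SD, n = 3), which overlapped. The levels in genes lay near the unmethylated background, which rose from 0.30% to 0.60%. Their overlap therefore does not show that CHH methylation in genes was unchanged. Transposable elements were not annotated in the reference used.

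Gene lists were counted by a called CHH window between 1 kb upstream and the gene end, which 2232 of 27444 protein-coding genes had (8.13%). Of a list of 5 genes whose expression is known to depend on DNA methylation or nearby heterochromatin, 3 had one: FWA, a homeobox gene that is silent in vegetative tissue, SDC, an F-box gene silenced by non-CG methylation, and AT1G58602, which carries heterochromatin in an intron. At FWA (chr4:13038301-13038600) CHH was 48.6%, 55.4% and 46.5% at 0 h and 21.8%, 25.5% and 21.1% at 48 h SL (quasi-likelihood F test adjusted p = 4.18e-06). At SDC (chr2:7681801-7682100) it was 59.5%, 56.1% and 47.9% against 31.8%, 26.4% and 29.3% (adjusted p = 3.04e-06 in the same test). Both genes lost CHH methylation without a CHG call.

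Genes of photosynthesis had a called CHH window in 3 of 17 cases: RBCS1B, a small subunit of Rubisco, and LHCB2.1 and LHCA3, which encode light-harvesting proteins of photosystem II and I. At LHCB2.1 (chr2:1822801-1823100) CHH was 65.7%, 64.5% and 64.7% at 0 h and 31.2%, 33.3% and 37.2% at 48 h SL, with no overlap. Of 17 genes of seed maturation, with storage proteins and their regulators, and of 17 genes of the DNA methylation machinery, 0 had one, and no gene of any list had a called CHG window, which 0.598% of all protein-coding genes had. With so few genes in a list these counts stand beside the 8.13% as a description.

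The loss was nearly equal on the strands. In windows with at least 10 calls on each strand CHH was 5.41%, 5.40% and 5.54% on the plus strand at 0 h and 4.11%, 3.89% and 3.46% at 48 h SL, and 5.40%, 5.40% and 5.55% against 4.09%, 3.89% and 3.45% on the minus strand. The plus minus minus difference changed by 0.00438 points in CHH (exact 2-sided permutation test p = 0.500, adjusted p = 0.500 over 3 contexts) and 0.00344 in CHG (exact p = 0.4, adjusted p = 0.500). In CG it changed by 0.0278 points with separated libraries (exact p = 0.1, adjusted p = 0.3), beside CG changes of -0.216 and -0.244 points on the strands.

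**Figure D4:**
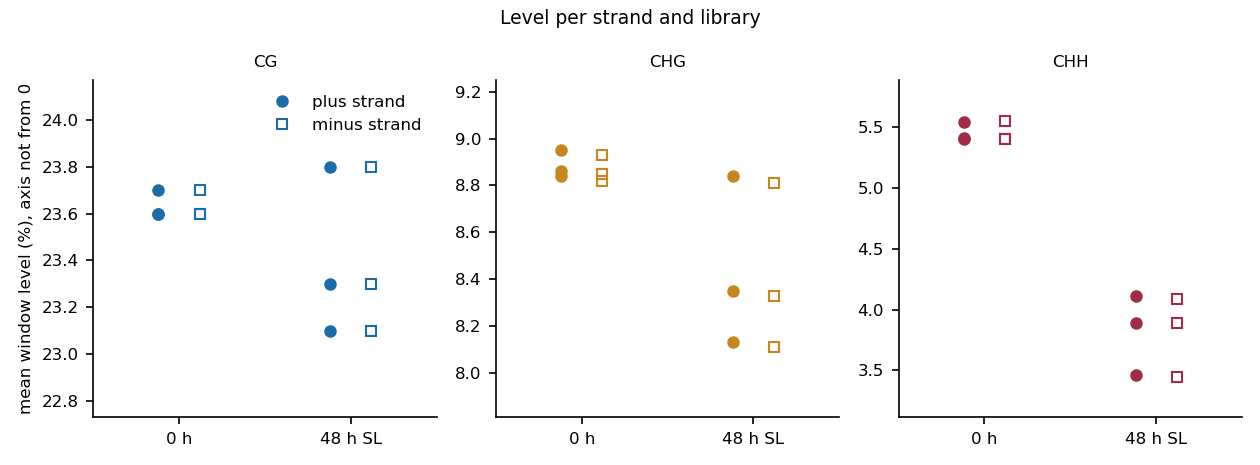
Mean window level (%) of each context on the plus strand (filled circles) and minus strand (open squares) in the 3 libraries of 0 h and of 48 h SL; the vertical axes differ between contexts and do not start at 0. The strands of a library lie at nearly the same level, and CHH falls on both, from 5.45% to 3.82% on the plus and from 5.45% to 3.81% on the minus strand.

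Within single windows no strand-specific loss of 20 points was called. Limma on the difference between strands called 0 of 171309 CG, 0 of 206876 CHG and 0 of 376500 CHH windows (0% each), with 8783, 11359 and 22062 below an unadjusted p of 0.05, and without the size minimum it called 6 CG, 27 CHG and 0 CHH windows. Leaving out 1 library gave 0 to 7 CG, 1 to 8 CHG and 0 to 1 CHH windows. Of the 6849 called CHH windows with enough calls on each strand, both strands were lower in 99.9% and both by 20 points in 66.1%, with medians of -25.7 and -25.6 points. In 6109 of them (89.2%) the libraries were separated on both strands, against 5.89% of all 376500 windows. Of 145 called CHG windows both strands were lower in 97.2%. Windows were called on both strands summed in the same libraries, so these shares follow in part from that choice and carry no test.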

How the data were processed

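Genomic DNA (600 ng per library, with 0.5% lambda DNA) was used for MethylC-seq. Single-end reads had been trimmed (Trim Galore 0.4.2), aligned to TAIR10 (Bismark 0.16.3) and freed of duplicates by the authors. The deposited table holds the raw count of methylated and of unmethylated calls per cytosine, strand and library, without normalization or pooling. All 42859750 positions matched a cytosine of the TAIR10.1 reference, 36 differed from it in trinucleotide, and 244 with an unlisted trinucleotide were left out. Duplicate removal does not make calls of one read independent, and intervals cover counting error and the fitted spread only. Deposited region lists, which give coordinates, were not used. The conversion rate was not measured on lambda DNA.

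Calls were summed in 397157 windows of 300 bp. Windows with at least 3 covered cytosines and 20 calls of the context in all 15 libraries were fitted by a quasi-binomial model with 1 mean per time point, with dispersions moderated by squeezeVar of limma 3.58.1 (R 4.3.3) and a floor of 1. The prior was taken from windows with at least 2 expected calls of either kind per library. Differences between contexts or strands were fitted by limma with a trend. Called means an adjusted p below 0.05 and a difference of 20 points. Values per library were compared by exact 2-sided permutation tests of 3 against 3, whose smallest p is 0.1, so that no such test could pass 0.05. Separated means that all libraries of a group lay on the same side of the other group. The replicates are described as biological but came from a single batch of plants, so p-values measure the spread between these samples. Both models were tested on simulated data. Python 3.11.15, NumPy 2.4.6 and SciPy 1.17.1 were used.

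Named windows were the 3 with the largest CHH fall on each chromosome among windows called in CHH and CHG with separated libraries. To these were added up to 3 each with the largest fall or rise for CHG without CHH by the context test, CG lower, CG higher, and CHH with a CHG interval excluding a 20-point fall. The comparison, the gene lists and the classes were chosen with earlier results of these data known. Alternatives covered the libraries in the fit, the test, window size, call minimum, size minimum, weighting, background, gene-poor threshold and each library left out.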

Additional observations from a re-analysis of the deposited data

How the results depend on the processing

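CHH windows outnumbered CHG and CG windows in each setting tried, but the counts depended on the thresholds. Fitting only the 6 libraries of 0 h and 48 h SL gave 3 lower and 2 higher CG windows, 275 joint CHH and CHG windows and 4679 with CHH only. Limma on arcsine levels gave 3 and 5 CG windows, 75 CHG and 59 joint windows. At least 10 calls gave 17 lower CG, 444 CHG, 282 joint and 4316 CHH-only windows, and at least 50 calls gave 1 lower and 4 higher CG, 50 CHG, 33 joint and 328 CHH-only windows. Windows of 100 bp gave 1 lower and 0 higher CG, 23289 CHH and 1259 CHH-only windows, and windows of 1000 bp gave 1 and 0 CG, 35 CHG, 1101 CHH, 18 joint and 892 CHH-only windows. A minimum of 10 points gave 230 lower and 58 higher CG, 628 CHG, 24877 CHH, 478 joint and 10178 CHH-only windows, 4 with all contexts lower, and 1143 in which CHH fell more than CHG. No minimum gave 447 and 61 CG, 652 CHG, 40344 CHH, 524 joint and 17775 CHH-only windows and 6 with all contexts lower. The cause of these shifts was not tested beyond the number of windows or calls that each setting admits. Counting each cytosine equally left 9 higher CG windows.

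Leaving out 1 library moved the lower CG windows between 2 and 30, the higher ones between 0 and 11, the windows in which CHH fell more than CHG between 388 and 466, and the strand-specific windows between 0 and 7 in CG, 1 and 8 in CHG and 0 and 1 in CHH. Of 460 values per library under all alternatives, 443 kept their direction, and all of the 27 under equal weight per cytosine did. The reversed ones were mostly small CG changes. With all calls summed, which weights the deeper gene-poor coverage of replicate 1 of 48 h SL, CG changed by 0.113 points genome-wide, by 0.101, 0.233, 0.000903, 0.0573 and 0.148 points on chromosomes 1 to 5 and by 0.203 and 0.178 on the plus and minus strands, CHG in gene-rich bins by 0.0246, and the CHH strand difference by -0.0896. With gene-poor set below 20% CG in gene-rich bins changed by -0.0136. Leaving out 1 library moved CG in gene-rich bins between -0.0890 and 0.183, CGA between -1.08 and 0.0475, CGT between -1.09 and 0.177, CCG between -1.16 and 0.116 points, and the CCG ratio between -0.0123 and 0.0227. The change in the gap between CCG and the other CHG trinucleotides in windows with 40% CHH or more stayed between -9.29 and -8.92 points.

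Libraries of the groups share replicate numbers, but the deviations of same-numbered libraries from their group means correlated at 0.00176, 0.0194 and -0.00388, and not every library correlated best with its own number. The replicate block, a paired fit, gave 11 and 15 CG, 290 CHG, 7516 CHH, 185 joint and 607 CHH against CHG windows and 0 strand-specific windows, and changed no count by over 1.5 times. Depth limits the CHG and CG contexts most, whose windows held few calls, and the tests of 3 against 3 libraries could not pass 0.05.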
